A study of Ovis aries with 95 samples.

Results

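TTR, AQP1 and PTGDS, 3 genes of the choroid plexus and cerebrospinal fluid, were described across 4 regions of the developing sheep brain. They were found by name among the gene probes of a sheep array, as 4 of 15008 probes: 1 for TTR, 1 for PTGDS, which the array calls PGDS, and 2 for AQP1, whose values were averaged. These are 3 of the 14347 genes or unnamed transcripts that the array measures. Total RNA of the cortex, brainstem, hippocampus and hypothalamus was hybridized on 95 arrays, 1 array per sample. Fetuses were sampled at 80 d, 100 d, 120 d, 130 d and 145 d of gestation, and lambs 1 d after birth (newborn), with n = 4 arrays in each group of region and age, except hippocampus at 100 d with n = 3. The ewes were not in labor. The labels do not give breed or sex. Each age included a pair of twins that the labels do not mark. The methods give 4 animals per age, so that samples of different regions share animals, but the labels do not mark which. Comparisons of regions treat such samples as independent, and p-values measure the spread between these samples. The tissue was dissected from the upturned brain, with the hypothalamus taken first and a section of frontal cortex last, and each sample is a piece of bulk tissue in which more cells of a type and more RNA per cell cannot be told apart.

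The choroid plexus is a sheet of epithelium that hangs into the ventricles of the brain and secretes cerebrospinal fluid. Its epithelium makes large amounts of transthyretin, the product of TTR, which carries thyroid hormone and retinol in the fluid, and it holds the water channel aquaporin 1, the product of AQP1, in the membrane that faces the ventricle. PTGDS encodes lipocalin-type prostaglandin D synthase, which makes prostaglandin D2, is an abundant protein of the fluid, and is made by the leptomeninges and by oligodendrocytes as well as by the choroid plexus. Plexus tissue lies beside the hippocampus in the lateral ventricle, above the hypothalamus in the third ventricle, and on the roof of the brainstem in the fourth ventricle, while the outer cortex is not in contact with it.

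The probes show what each measurement rests on. The probes of AQP1 overlap by 59 of their 60 bases and are not independent of each other. In the sequences here the capital marks the 1 base that only that probe holds.

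AQP1 probe, first: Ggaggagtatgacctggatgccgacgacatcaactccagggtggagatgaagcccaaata

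AQP1 probe, second: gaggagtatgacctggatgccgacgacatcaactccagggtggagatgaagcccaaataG

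The PTGDS probe is 60 bases long, and its first 50 bases are shown. Every PTGDS value here comes from this oligonucleotide alone. Every TTR value likewise comes from 1 probe, whose sequence is not shown.

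PTGDS probe: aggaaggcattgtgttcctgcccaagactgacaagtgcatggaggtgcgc

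Levels are given as log2 of the background-corrected, quantile normalized intensity, a scale on which 1 unit is a 2-fold difference. Levels of different genes come from different probes and are not set against each other. Between 59.5% and 88.5% of gene spots were well above background on an array, with the lowest share in the hippocampus. That array was 1 of 8 hippocampal arrays on a slide that was scanned on another day and held no 80 d array. Hypothalamus at 120 d replicate 4 was also scanned on another day than the rest of its region. The part of scan day in the results was not tested. The TTR and PTGDS probes were well above background on all 95 arrays and at least 1 AQP1 probe on 24 of them. No probe of the 3 genes was saturated on any array. The scanner software marked the TTR spot as an outlier on 4 arrays and the PTGDS spot on 2, and these spots were left out, which gives n = 3 in the groups concerned. The summed level of the brainstem markers SLC6A4, the serotonin transporter, and HOXA4, a gene of the hindbrain pattern, was 8.23 to 9.13 in the brainstem and at most 7.65 in the other regions. The summed level of 9 hypothalamic genes overlapped, at 13.31 to 15.87 in the hypothalamus and 12.42 to 16 elsewhere, and SST, which encodes somatostatin, averaged 13.32 at 80 d there and 13.47 to 14.33 elsewhere. Single genes, chosen after their values were seen, were higher in the hypothalamus: at 80 d OXT, which encodes oxytocin, averaged 11.82 there and 7.82 to 8.30 elsewhere, and POMC averaged 11.05 there and 9.14 to 9.61 elsewhere.

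TTR was highest in the brainstem. Its level there ran from 14.45 to 18.46 over 21 arrays, with a median of 16.97. In the hippocampus it ran from 9.02 to 18.01 over 23 arrays, with a median of 12.24. The hypothalamus spanned 7.19 to 17.28 over 23 arrays around a median of 11.63, and the cortex 7.67 to 15.92 over 24 arrays around a median of 10.52. TTR was the brightest gene probe on 3 brainstem arrays, and it ranked 8 from the brightest on 1 hippocampal array and 9544 on 1 hypothalamic array.

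Averaged over the 6 ages, TTR was 5.78 log2 units higher in brainstem than in cortex (SE 0.64, 55.0-fold, adjusted p = 3.84e-12, limma with Benjamini-Hochberg adjustment over all genes). In this comparison 51.7% of all genes passed, so that a call alone does not set TTR apart. TTR was also lower in hypothalamus than in brainstem, with a difference of -5.24 (SE 0.65, 37.8-fold, adjusted p = 5.41e-10), where 44.7% of genes passed, and lower in hippocampus than in brainstem, with a difference of -3.88 (SE 0.65, 14.7-fold, adjusted p = 8.04e-07), where 47.4% passed. Hippocampus exceeded cortex by 1.90 (SE 0.62, 3.73-fold, adjusted p = 0.00847; 50.8% of genes passed), and by 1.83 with slide as a random block, which did not pass (adjusted p = 0.205). The remaining differences, hypothalamus minus cortex at 0.54 (SE 0.62, adjusted p = 0.490) and hypothalamus minus hippocampus at -1.36 (SE 0.63, adjusted p = 0.0699), did not pass, while 47.6% and 46.1% of genes did. The latter passed in the authors' table (-1.44, adjusted p = 0.0414), on the processed signal (-1.60, adjusted p = 0.0324) and in 10 of 95 runs with 1 array left out. Slides lie within regions, so slide and region cannot be fully told apart.

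Age by age, the brainstem and cortex values of TTR did not overlap at 5 of the 6 ages. At 80 d the cortex arrays read 13.41, 9.26, 9.55 and 11.22 and the brainstem arrays 18.32, 16.92 and 18.32. The brainstem arrays were all above the cortex arrays, by 6.99 on average (SE 1.62, adjusted p = 0.00101, 14.2% of genes passed). At 120 d the cortex arrays read 11.19, 11.50, 15.92 and 9.28 and the brainstem arrays 18.06, 15.02 and 15.08, so that the highest cortex array lay among the brainstem arrays and the difference of 4.08 (SE 1.62) did not pass (adjusted p = 0.0853; 13.4% of genes passed). At 100 d, 130 d, 145 d and in the newborn the difference was 5.79, 5.06, 6.47 and 6.30 (adjusted p = 0.00395, 0.0208, 7.69e-04 and 0.00119), where 13.5%, 16.6%, 21.1% and 19.8% of genes passed. The hippocampus and the hypothalamus overlapped with the cortex at every age, and no difference of theirs from cortex at 1 age passed. The genes that did made up 6.27%, 4.52%, 8.51%, 20.8%, 13.3% and 8.58% of all genes for hippocampus, from 80 d to newborn, and 10.6%, 8.38%, 8.15%, 11.5%, 17.5% and 9.55% for hypothalamus. The hippocampal difference from cortex was -1.40 at 120 d and 4.38 in the newborn (adjusted p = 0.614 and 0.0540).

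**Figure D1:**
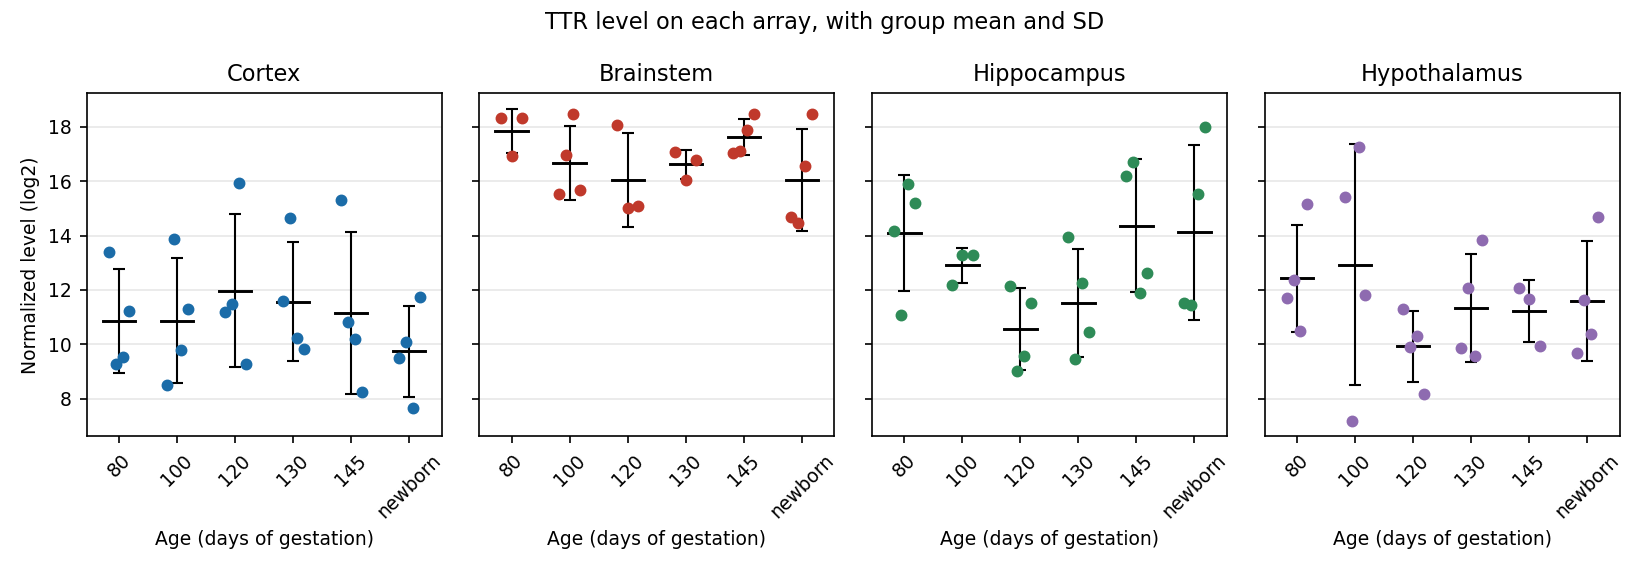
TTR level (log2, y axis) on each array by age (x axis, days of gestation; newborn is 1 d after birth) in the 4 regions. Points are arrays, black bars group means and whiskers SD (n = 4, or 3 where a spot was left out or in hippocampus at 100 d). The 21 brainstem points lie between 14.45 and 18.46, while points of 1 group in the other regions lie up to 10.09 log2 units apart.

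Between arrays of 1 group, TTR varied more than nearly all other genes. In the hypothalamus at 100 d the 4 arrays read 15.41, 7.19, 17.28 and 11.82, a range of 10.09 log2 units. In the cortex at 145 d they read 15.33, 10.83, 10.20 and 8.25, and in the newborn hippocampus 11.53, 11.43, 15.52 and 18.01. The brightest array of each of these groups stood several log2 units above the dimmest. The SD within a group was 1.68 to 2.99 in cortex, 0.64 to 3.21 in hippocampus, 1.13 to 4.44 in hypothalamus and 0.53 to 1.87 in brainstem. Group ranges were also wide without quantile normalization: on the scanner software's processed signal the brightest array of hypothalamus at 100 d was 1482-fold above the dimmest.

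The residual SD of TTR, pooled over the ages of a region, was 2.36 in cortex, where it ranked 1 from the highest of 12899 genes and the median gene had 0.17. It ranked 5 of 12928 in hypothalamus (2.49, median gene 0.27), 26 of 12686 in hippocampus (2.20, median gene 0.47) and 53 of 12771 in brainstem (1.30, median gene 0.22). The 3 brainstem arrays on which TTR was the brightest probe share 18.46, the highest value of the normalized scale. PTGDS, in contrast, had a residual SD of 0.28 (cortex), 0.29 (brainstem), 0.58 (hippocampus) and 0.28 (hypothalamus), at percentile 51.7 to 84.3 of all genes. AQP1 had 0.09 to 0.31, at percentile 6.78 to 32.7, on a scale that flattens dim probes. On the processed signal AQP1 had 0.697 to 1.38 and PTGDS 1.19 in hippocampus. Without newborn replicate 4 the hippocampal value of AQP1 was 0.178 in place of 0.312, and without replicate 1 at 145 d the hypothalamic value was 0.0889 in place of 0.135. These are descriptions, with no test. Whether the spread of TTR came from the dissection was not tested.

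**Figure D2:**
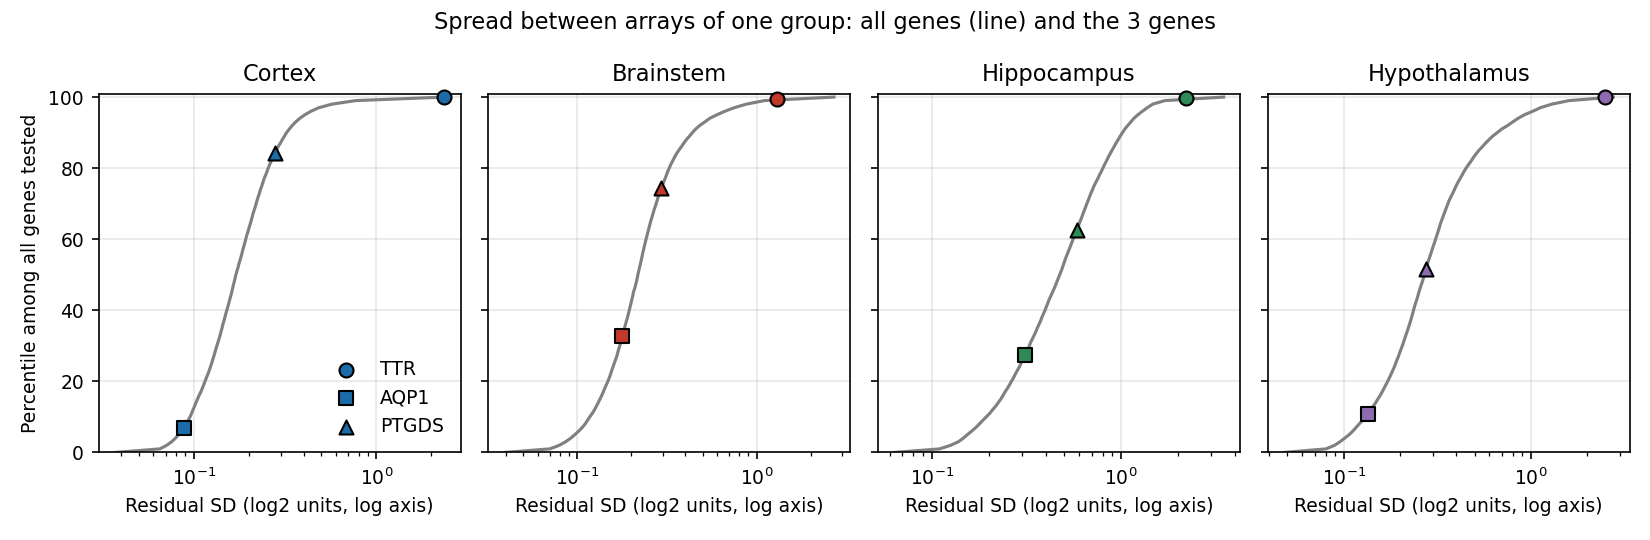
Residual SD between arrays of 1 group (x axis, log2 units on a log axis) against its percentile among all genes tested in the region (y axis). The grey line is all genes, and symbols mark TTR, AQP1 and PTGDS. TTR sits at the upper end in each region (2.36, 1.30, 2.20 and 2.49), PTGDS at percentile 51.7 to 84.3 and AQP1 at percentile 6.78 to 32.7.

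No change of TTR with age passed in any region. The group means ran from 9.74 to 11.97 in cortex, 16.04 to 17.85 in brainstem, 10.57 to 14.37 in hippocampus and 9.93 to 12.93 in hypothalamus. A joint F test of all ages after 80 d gave adjusted p = 0.842, 0.406, 0.602 and 0.774 in that order. In the same tests 45.8%, 40.6%, 3.06% and 16% of all genes passed. From 80 d to 145 d TTR differed by 0.29 (cortex, SE 1.54), -0.23 (brainstem, SE 0.91), 0.28 (hippocampus, SE 1.47) and -1.20 (hypothalamus, SE 1.79), each less than its error. Some shorter intervals differed by more than their error, without passing. From 100 d to 120 d TTR differed by -2.34 in hippocampus (SE 1.58, arrays without overlap) and -3.00 in hypothalamus (SE 1.66). It differed by 2.85 in hippocampus from 130 d to 145 d (SE 1.47) and by -1.59 in brainstem across birth (SE 0.85). Neither changes smaller than their standard errors nor these larger ones were detectable with these arrays. Differences between the regions in the change from 80 d to 145 d and across birth did not pass either (adjusted p = 0.957 and 1.00).

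PTGDS rose from 80 d to 145 d in all 4 regions, by 2.25 to 5.64 log2 units. In the cortex the 4 arrays at 80 d read 10.93, 10.19, 10.45 and 10.82, and those at 145 d 16.46, 16.45, 15.95 and 16.10. The groups did not overlap, and the rise of 5.64 (SE 0.19, 50.01-fold) passed with adjusted p = 7.66e-15, where 18.7% of genes were called higher. In the hippocampus the arrays read 12.15, 12.38, 11.93 and 11.97 at 80 d and 17.07, 16.48, 16.67 and 17.12 at 145 d. That rise was 4.73 (SE 0.40, 26.5-fold, adjusted p = 5.29e-07), with no overlap, where 2.12% of genes were called higher.

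In the hypothalamus PTGDS read 13.47, 13.73, 13.13 and 13.73 at 80 d and 15.75, 16.66, 16.13 and 16.50 at 145 d, a rise of 2.74 (SE 0.19, 6.70-fold, adjusted p = 7.73e-09) against 5.69% of genes called higher. In the brainstem the arrays read 14.65, 14.40, 14.91 and 13.88 at 80 d and 16.99, 16.67, 16.58 and 16.60 at 145 d, a rise of 2.25 (SE 0.20, 4.75-fold, adjusted p = 7.94e-08) against 17% called higher. All 145 d arrays were above all 80 d arrays in both regions. The F test over the ages passed in each region too (adjusted p = 9.00e-15, 1.04e-07, 2.49e-06 and 8.99e-10 in cortex, brainstem, hippocampus and hypothalamus), beside the shares of genes given for TTR. On every slide that held arrays of 80 d and 145 d the difference had the same sign, from 1.67 to 6.002.

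**Figure D3:**
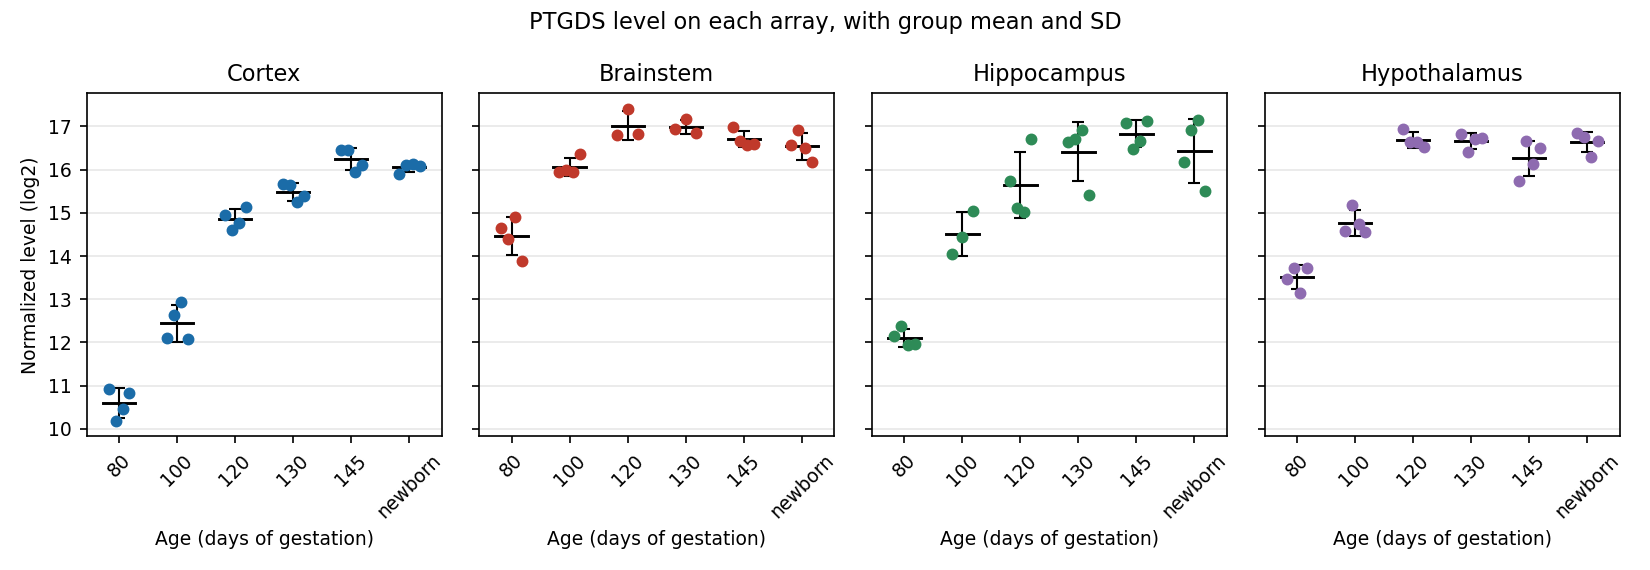
PTGDS level (log2, y axis) on each array by age (x axis, days of gestation; newborn is 1 d after birth) in the 4 regions, with group means (bars) and SD (whiskers; n = 4, or 3 in hippocampus at 100 d and in brainstem at 120 d and 130 d). The cortex mean is 10.60 at the first age and 16.24 at the fifth, and the brainstem mean is 14.46 at the first and 17.01 at the third.

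Most of the rise fell between 80 d and 120 d. From 80 d to 100 d PTGDS rose by 1.84 (cortex), 1.60 (brainstem), 2.40 (hippocampus) and 1.25 (hypothalamus) (SE 0.19, 0.20, 0.43 and 0.19; adjusted p = 6.53e-06, 1.12e-04, 0.0426 and 0.00755). Genes called higher in this step made up 2.53%, 4.41%, 0.0315% and 0.108% of those tested. From 100 d to 120 d it rose by 2.43 in cortex, 0.95 in brainstem and 1.92 in hypothalamus (SE 0.19, 0.21 and 0.19; adjusted p = 8.50e-08, 0.0175 and 1.74e-05; 3.06%, 1.71% and 0.719% of genes called higher). The hippocampal difference of 1.14 in that interval (SE 0.43) did not pass (adjusted p = 1.00). In the hippocampus at 120 d the arrays read 15.73, 15.12, 15.03 and 16.70.

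No later step passed. In the cortex the group means at 120 d, 130 d and 145 d were 14.86, 15.49 and 16.24, without overlap of the arrays, with differences of 0.63 and 0.75 (SE 0.19; adjusted p = 0.0855 and 0.121; 1.25% and 0.171% of genes passed). In the hypothalamus the means were 16.69, 16.67 and 16.26 at these ages, and in the brainstem 17.01, 16.99 and 16.71. Across birth PTGDS differed by -0.19 (cortex), -0.17 (brainstem), -0.40 (hippocampus) and 0.38 (hypothalamus) (SE 0.19, 0.20, 0.40 and 0.19; adjusted p = 0.942, 0.658, 1.00 and 0.276). Few genes passed across birth in cortex (0.248%) and hippocampus (0.00788%), and more in brainstem (4.91%) and hypothalamus (2.48%).

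The differences in PTGDS from cortex were largest at 80 d for brainstem and hypothalamus and at 100 d for hippocampus. At 80 d the brainstem exceeded the cortex by 3.87 (SE 0.27, 14.6-fold, adjusted p = 4.31e-20), the hypothalamus exceeded it by 2.92 (SE 0.27, 7.57-fold, adjusted p = 4.43e-14; 10.6% of genes passed), and the hippocampus by 1.51 (SE 0.27, 2.85-fold, adjusted p = 3.73e-05; 6.27% passed). None of these groups overlapped with cortex. At 100 d and 120 d the brainstem was still higher by 3.62 and 2.15 (adjusted p = 1.28e-18 and 1.51e-08) and at 130 d it was 2.82-fold higher (adjusted p = 4.55e-05). At the same 3 ages the hypothalamus was higher by 2.33, 1.82 and 1.17 (adjusted p = 2.79e-10, 3.74e-07 and 0.00101). The hippocampal difference was 2.07, 0.78 and 0.93 at these ages and passed at 100 d and 130 d (adjusted p = 3.66e-07, 0.0507 and 0.00845). By 145 d the differences from cortex were 0.47, 0.02 and 0.59 for brainstem, hypothalamus and hippocampus, and none passed although the brainstem and hippocampus arrays did not overlap with the cortex arrays (adjusted p = 0.224, 0.976 and 0.125, while 21.1%, 17.5% and 13.3% of genes passed). In the newborn they were 0.49, 0.59 and 0.38 (adjusted p = 0.203, 0.167 and 0.405). The change from 80 d to 145 d differed between the regions (F = 36.91, adjusted p = 2.06e-11), as it did for 10.5% of all genes. The change across birth did not differ beyond the spread (adjusted p = 0.95; 0.0438% of genes passed).

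Averaged over the ages, the order of PTGDS was brainstem, hypothalamus, hippocampus and cortex, with means of 16.30, 15.76, 15.33 and 14.28. Hypothalamus minus brainstem was -0.54 (SE 0.11, adjusted p = 5.33e-05), and hippocampus exceeded cortex by 1.05 (SE 0.11, adjusted p = 1.57e-12). Hypothalamus exceeded hippocampus by 0.43 (SE 0.11, adjusted p = 0.00104; 46.1% of genes passed), a difference that was 0.13 in the authors' table (adjusted p = 0.341), had the opposite sign on the processed signal (-0.0013, adjusted p = 0.996) and did not pass with slide as a block (adjusted p = 0.103). The difference between brainstem and hypothalamus was smaller than the rise within either region.

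AQP1 was near background in all 4 regions. Its level ran from 6.34 to 7.73 over the 95 arrays, against a floor of 6.47 on the median array, the dimmest level at which any probe was called above background. At least 1 of its probes was well above background on 3 of 24 cortex arrays, 10 of 24 brainstem arrays, 3 of 23 hippocampus arrays and 8 of 24 hypothalamus arrays, and both were on 0, 7, 2 and 3. The highest arrays were newborn hippocampus replicate 4 at 7.73 and hippocampus at 145 d replicate 2 at 7.30, followed by brainstem at 145 d replicate 3 at 7.07 and hypothalamus at 145 d replicate 1 at 7.04.

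**Figure D4:**
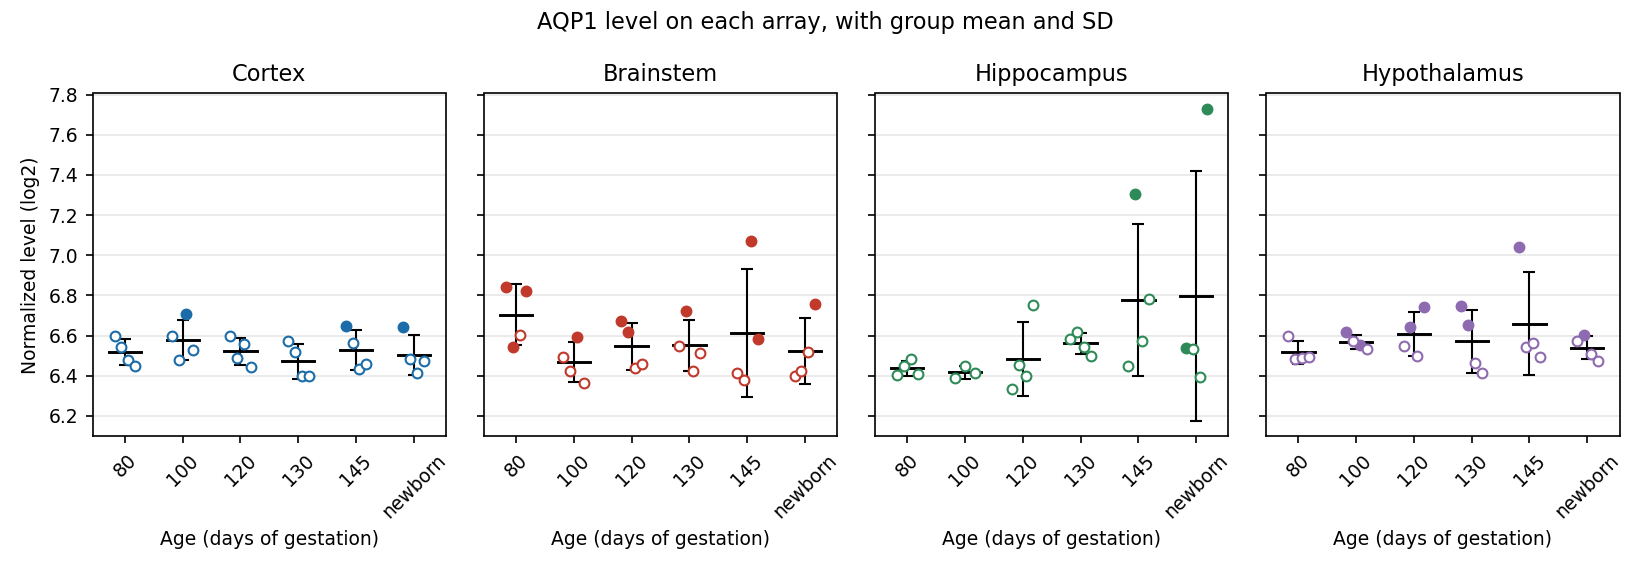
AQP1 level (log2, y axis, mean of 2 overlapping probes) on each array by age (x axis, days of gestation; newborn is 1 d after birth) in the 4 regions, with group means (bars) and SD (whiskers; n = 4, or 3 in hippocampus at 100 d). Filled points have at least 1 probe well above background, and open points have none. The lowest point is at 6.34, and single hippocampal arrays reach 7.30 and 7.73.

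No AQP1 difference passed between ages or regions on this scale. The F tests over the ages gave adjusted p = 0.854, 0.654, 0.952 and 0.901 in cortex, brainstem, hippocampus and hypothalamus, and the F test over the regions 0.715, which 83.3% of genes passed. In the hippocampus no array was well above background at 80 d and 1 of 4 was at 145 d. No size or bound is given for the difference between these ages, since the other 145 d arrays were not well above background. The limma test of this difference used 1 probe in hippocampus and did not pass (adjusted p = 0.376). On the processed signal, which is not flattened by the offset, the F test over the regions passed (adjusted p = 0.00197). No size is given for it, since at least 1 probe was well above background on only 3 of 24 cortex arrays and both were on 0.

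Brainstem arrays with detectable AQP1 had high TTR. The 8 such arrays with a TTR value read 16.92 to 18.46 for TTR, with a median of 18.32, and the brainstem arrays without detectable AQP1 read 14.45 to 17.12, with a median of 16.04. The ranges overlapped only between 16.92 and 17.12. These arrays also differed in how many of all gene spots stood above background, at 75.6% to 88.5% (median 83.8%) on the 10 brainstem arrays with detectable AQP1 and 72.03% to 83.4% (median 76.5%) on the 14 others. On newborn brainstem replicate 4, which had detectable AQP1, the gene spots neighbouring those of TTR and AQP1 on the slide lay 0.48 and 0.41 log2 units above the other arrays of the group (median). The part of either in the result was not tested. By the same criterion of at least 1 probe, the 3 hippocampal arrays with detectable AQP1 read 11.53, 16.72 and 18.01 for TTR, against a median of 12.20 on the others. The 3 such cortex arrays had a median of 9.79 against 10.83 on the others, and the 8 such hypothalamic arrays ran from 8.17 to 17.28 with a median of 11.84 against 11.31. With both AQP1 probes above background, the TTR median was 9.91 on 3 hypothalamic, 18.32 on 6 brainstem and 17.37 on 2 hippocampal arrays.

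After subtraction of group means, TTR and AQP1 correlated over the 21 brainstem arrays (Pearson's r = 0.637, permutation p = 0.00114; Spearman's rho = 0.683, permutation p = 0.00133). Of 12 pairs of genes and regions computed, this was the only pair to pass (adjusted p = 0.0137 for r and 0.0160 for rho), except that on the processed signal the hippocampal pair passed as well (r = 0.61, adjusted p = 0.0297). Without the 2 arrays farthest from the median of TTR r was 0.540 with an adjusted p of 0.154, so that the call rests on those arrays. Within slides of at least 6 arrays r was positive in 8 of 10 slides over the 4 regions, with a median of 0.379, and none passed in an exact permutation test (lowest adjusted p = 0.0546). In hippocampus, cortex and hypothalamus r was 0.485, 0.320 and -0.09 (n = 23, 24 and 23; adjusted permutation p = 0.270, 0.270 and 0.633). At least 1 AQP1 probe was well above background on 8 of the 21 brainstem arrays and 3 of the 23 hippocampal arrays. These coefficients therefore rest in part on AQP1 values at background.

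**Figure D5:**
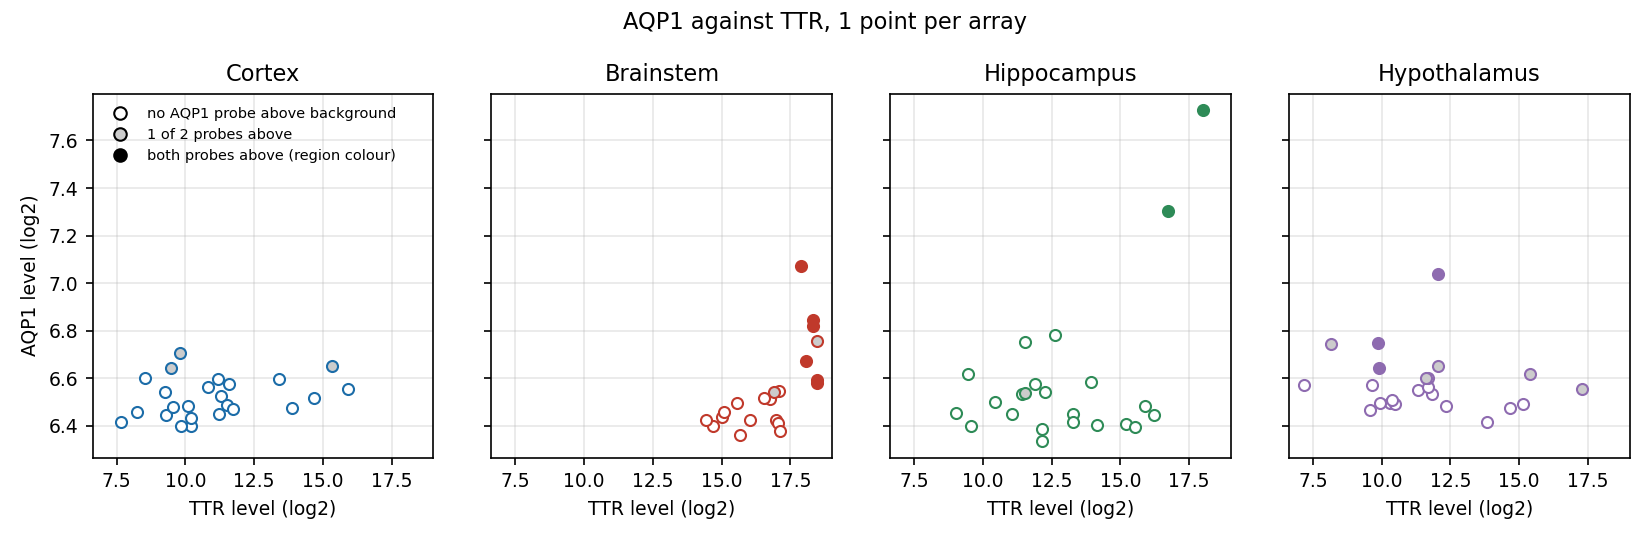
AQP1 level (log2, y axis) against TTR level (log2, x axis), 1 point per array with a TTR value, by region. Filled points have both AQP1 probes well above background, grey points 1 of 2 and open points none. In the brainstem the points with detectable AQP1 have TTR at 16.92 or more, and in the hypothalamus they run from 8.17 to 17.28.

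No correlation of PTGDS with TTR or AQP1 from array to array passed. Its correlation with TTR was 0.336 (cortex), -0.540 (brainstem), -0.03 (hippocampus) and -0.174 (hypothalamus) (n = 24, 19, 23 and 23; adjusted permutation p = 0.270, 0.232, 0.917 and 0.633). With AQP1 it was 0.326, -0.347, -0.327 and -0.44 in the same order (n = 24, 22, 23 and 24; adjusted permutation p = 0.270, 0.270, 0.376 and 0.270). Within slides of at least 6 arrays r of PTGDS with AQP1 was positive in 2 of 11, from -0.892 to 0.603 with a median of -0.373, and r of PTGDS with TTR was positive in 6 of 10, with a median of 0.0659. None of these passed in an exact permutation test (lowest adjusted p = 0.0561 and 0.204).

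Of 30 other choroid plexus genes, 7 had a named probe: the tight junction genes CLDN1, CLDN2 and CLDN3, the copper carrier ceruloplasmin (CP), the growth factor IGF2, its binding protein IGFBP2 and the prolactin receptor. On the 12 arrays with both AQP1 probes above background CLDN2, a claudin of this epithelium, lay above the median of its region on 12 of 12, IGFBP2 on 10, CLDN1 and IGF2 on 9, CLDN3 on 7, and CP and the prolactin receptor on 6. That median pools the ages, so that these counts also reflect age. Of the 12 arrays 7 were of brainstem, where arrays with detectable AQP1 had more of all gene spots above background (median 83.8% against 76.5%). How many of all genes lay above their region median on the 12 arrays was not counted, so the counts do not set these genes apart. In brainstem, where the CP median was 7.39, CP averaged 6.60 at 80 d and 7.49 at 145 d. IGFBP2 averaged 15.61 and 14.26 there, around a median of 14.71. CLDN2 itself was well above background on 19 of 95 arrays. Over all 95 arrays, after subtraction of group means, CLDN2 correlated with AQP1 at r = 0.773 and CLDN1, singled out after its values were seen, at r = 0.627. Without newborn hippocampus replicate 4 these were 0.672 and 0.256, so that the value for CLDN1 rests on that array, where CLDN1 read 9.17 against at most 7.48 elsewhere. With TTR the 7 genes correlated at r = 0.058 for CLDN3 to 0.38 for IGFBP2 (n = 91). IGFBP2 was at 0.291 with AQP1, and at 0.141 without newborn hippocampus replicate 4. With PTGDS, 6 of them correlated negatively, down to r = -0.366 for CLDN3, and IGF2 at 0.162 (n = 93). Without hippocampus at 120 d replicate 4 the same 6 were negative, the lowest being CLDN2 at -0.387, and IGF2 was at 0.0909. These points share arrays, array quality and dissection, and carry no p.

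The other plexus genes passed the F test over the ages in 3 of 6 cases in cortex, 3 of 6 in brainstem, 0 of 6 in hippocampus and 1 of 7 in hypothalamus, beside 45.8%, 40.6%, 3.06% and 16% of all genes. From 80 d to 145 d 2 rose and 1 fell in cortex, where 18.7% and 22.7% of all genes did, and 1 rose and 2 fell in brainstem, where 17% and 20.5% did. CP rose by 0.89 in brainstem (adjusted p = 1.02e-05), where it was well above background on 24 of 24 arrays. It was called higher at 145 d in cortex, hippocampus and hypothalamus too (adjusted p = 0.00475, 0.0447 and 5.99e-04), but was well above background there on 9 of 24, 12 of 23 and 16 of 24 arrays, so that no size is given. IGF2 rose by 2.11 in cortex (adjusted p = 7.00e-04) and fell by 1.27 in brainstem (adjusted p = 0.0438), and IGFBP2 fell by 0.65 in cortex and fell by 1.35 in brainstem (adjusted p = 0.0122 and 0.0114). The median change of the list was -0.09 in cortex, -0.30 in brainstem and 0.14 in hippocampus, against medians over all genes of -0.02 in cortex and 0.0077 in brainstem.

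Of 24 genes of retinol and thyroid hormone carriage, 4 had a named probe besides TTR: albumin (ALB), the thyroxine-binding globulin SERPINA7 and the thyroid hormone receptors THRA and THRB. THRB rose from 80 d to 145 d in cortex by 0.68 (SE 0.16, adjusted p = 0.00151) and in brainstem by 0.43 (SE 0.16, adjusted p = 0.0354). ALB fell by 1.77 in brainstem (SE 0.45, adjusted p = 0.00344). In the F test 1 of 3, 1 of 2, 0 of 2 and 0 of 3 passed in cortex, brainstem, hippocampus and hypothalamus, beside 45.8%, 40.6%, 3.06% and 16% of all genes.

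Of 27 other water channels and genes of fluid secretion, 10 had a named probe and 9 were tested in each region. In the F test 5, 3, 1 and 0 of them passed in cortex, brainstem, hippocampus and hypothalamus, against the same shares of all genes (45.8%, 40.6%, 3.06% and 16%). From 80 d to 145 d 4 rose and 1 fell in cortex, where 18.7% of all genes rose and 22.7% fell, and 5 rose in brainstem, where 17% did. AQP4, the water channel of astrocyte end feet, rose by 1.77 in cortex and 0.97 in brainstem (adjusted p = 6.31e-04 and 0.0199). In hypothalamus AQP4 fell by 3.57 across birth (adjusted p = 0.0404), but its F test over the ages did not pass there (adjusted p = 0.0582). Its level there ran from 8.95 to 16.66 over all ages. ATP1B1, a beta subunit of the sodium pump, rose in cortex by 1.31 (adjusted p = 1.19e-06), in brainstem by 0.58 (adjusted p = 0.0115) and in hippocampus by 1.79 (adjusted p = 4.61e-04). AQP8 fell by 0.87 in cortex (adjusted p = 4.77e-04) and rose by 0.79 in brainstem (adjusted p = 0.00903). Median changes of the list were 0.17, 0.48, 0.28 and -0.03 in the 4 regions.

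Of 23 genes of prostaglandin synthesis, reception and transport, 7 had a named probe and were tested in each region, and 6, 2, 2 and 0 of them passed the F test in cortex, brainstem, hippocampus and hypothalamus (45.8%, 40.6%, 3.06% and 16% of all genes). PTGS2, the inducible cyclooxygenase that makes the substrate of PTGDS, rose from 80 d to 145 d by 2.03 in cortex and 2.18 in hippocampus (adjusted p = 1.55e-08 and 0.00200), and differed by 0.03 in brainstem and 0.29 in hypothalamus (adjusted p = 0.941 and 0.335). PTGFR, the receptor of prostaglandin F2 alpha, fell by 0.99 in cortex and fell by 2.27 in hippocampus (adjusted p = 4.72e-08 and 3.57e-04) and rose by 0.66 in hypothalamus (adjusted p = 0.0469). SLCO2A1, a prostaglandin uptake carrier, rose by 0.64 in cortex (adjusted p = 0.00295), where PTGER3, a receptor of prostaglandin E2, fell by 0.58 (adjusted p = 9.66e-06).

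Genes of other cells that make PTGDS were counted beside it. Of 17 listed genes of oligodendrocytes, 3 had a named probe: TF, CX32 and CRYAB. All 3 rose from 80 d to 145 d in all 4 regions, where 18.7% (cortex), 17% (brainstem), 2.12% (hippocampus) and 5.69% (hypothalamus) of all genes were called higher. TF, the iron carrier transferrin, rose by 6.28 (cortex), 3.73 (brainstem), 6.80 (hippocampus) and 6.02 (hypothalamus). Against the same shares, 3 of 4 meningeal genes rose in cortex (COL1A2 by 0.25, DCN by 0.53 and BGN by 0.35; adjusted p = 0.0117, 0.0305 and 0.0274) and none passed between 80 d and 145 d elsewhere. The summed level of the meningeal genes was 10.43 to 11.49 in cortex, 11.26 to 12.58 in brainstem, 10.78 to 14.07 in hippocampus and 10.42 to 11.48 in hypothalamus. From array to array PTGDS correlated with TF, CX32 and CRYAB at r = -0.370, 0.0827 and 0.156 and with the meningeal genes at 0.302 to 0.507 after subtraction of group means (n = 93). The part of these cells in the PTGDS values was not tested.

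Other lists of cell types were counted beside the 3 genes, again beside 45.8%, 40.6%, 3.06% and 16% of all genes passing in the 4 regions. In the F test over the ages 6, 6, 4 and 3 of 6 astrocyte genes passed in cortex, brainstem, hippocampus and hypothalamus, as did 5 of 7, 3 of 6, 0 of 5 and 1 of 6 endothelial genes and 2 of 3, 2 of 3, 0 of 2 and 1 of 3 genes of red blood cells. Of hypothalamic genes 4 of 7, 3 of 8, 0 of 8 and 1 of 9 passed, of pituitary genes 0 of 3, 1 of 3, 0 of 4 and 0 of 6, and of brainstem genes 0 of 2, 1 of 2, 0 of 2 and 0 of 2. NEUROD1, the only gene of the cortex and hippocampus list with a named probe, passed in all 4 regions, and no ependymal gene had a named probe. The residuals of TTR correlated with the 3 genes of red blood cells at r = -0.10 (CA1) to 0.198 (AHSP) and with the 7 endothelial genes at -0.0785 (GLUT-1) to 0.248 (PECAM1) (n = 91). Those of AQP1 did so at 0.0117 (CA1) to 0.371 (HBB) and at -0.0553 (FLT1) to 0.367 (PECAM1) (n = 95).

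The named genes most like each member were then listed, by Pearson's r over the 24 group means and over the residuals, as a description. By group means TTR was most like SLC6A4 (r = 0.883), HOXA5, HOXA7, HOXC6 and HOXA4 (r = 0.853 to 0.861), whose means at 80 d and 145 d were higher in the brainstem than in any other region. By residuals over 91 arrays it was most like IGFBP6 (r = 0.56), which ranked 1 of 13710 genes and was at r = 0.516 without hypothalamus at 100 d replicate 2, followed by BMP4, RPL6, ADRB3 and glut4 (r = 0.440 to 0.469). For AQP1 the same 4 genes led both measures: CLDN2 (r = 0.742 and 0.773), UGT1A9, FGF7 and GSTA1-1 (r = 0.616 to 0.767). UGT1A9 and GSTA1-1, both enzymes of conjugation, read 11.93 and 11.94 on newborn hippocampus replicate 4, above every other array, and without it their residual r fell to 0.554 and 0.456, and that of FGF7 to 0.432 from 0.711. PTGDS was most like TF (r = 0.935), FGF1 (r = 0.919), MDD2 (r = 0.898), CRYAB (r = 0.891) and SLC12A4 (r = 0.887) by group means. By residuals it was most like ARNT2 (r = 0.657), a transcription factor, followed by FLT-1, BEGAIN, CAMK2 and SST1 (r = 0.607 to 0.62).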

How the data were processed

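The authors labeled total RNA with Cy3 and hybridized it to a sheep array of 60-base probes. The deposited scanner files, made with Agilent Feature Extraction 10.1.1.1, hold the mean intensity and the local background intensity of each spot and a processed signal. The authors also deposited a table of log2 values, background-corrected and quantile normalized per their methods, of 11138 probes. Each of its 95 columns correlated best with the same array (lowest r = 0.998), with slopes of 0.957 to 0.989 against the log2 values made here. It holds 2 of the 4 probes, those of TTR and PTGDS. The genome build is not given in the sources used here, so no positions are given.

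Background was corrected by normexp with an offset of 50 (limma 3.58.1, R 4.3.3), which flattens dim probes, and values were quantile normalized over all arrays. Spots with outlier marks and control spots were left out. Probes stayed in a fit when they were at least 1.1 times as bright as the negative controls' percentile 95 on 4 or more of the fit's arrays, which leaves AQP1 on 1 of its 2 probes in hippocampus. Probes of a gene were averaged. Probes were named through the RefSeq sheep gene table (assembly ARS-UI_Ramb_v3.0, names only): 726 by accession, 139 by gene ID, 484 by symbol and 20 by synonym, and 224 kept the array's own name. The array's PGDS became PTGDS by accession, and its PR, described there as the prolactin receptor, was read as PRLR. Leaving out bare locus numbers, a symbol was available for 1556 probes and for none of the other 13452.

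limma (lmFit and eBayes) fitted the ages of each region, and the 24 groups together for region differences. A gene passed at an adjusted p under 0.05 over all genes. Correlations were tested with 100000 two-sided permutations within groups (numpy, scipy), adjusted over 12 pairs. Scripts were tested on simulated data. The members, the lists and the rule for named genes (at most 4 of a list by the smallest F test p, and the 5 most alike by each measure) were chosen with earlier results of these data known. Replicate numbers were not taken to pair samples. The number of arrays limits the precision. Alternatives covered the offset, processed signal, authors' table, normalization, filter, probe summary, marked spots, variance moderation, replicate and slide blocks and each array left out. Figures were drawn with matplotlib 3.10.9. The values of 1 gene of the fluid secretion list are not reported here.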

Additional observations from a re-analysis of the deposited data

Results flagged for a closer look

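In 5 of 63 groups of 4, 1 array lay apart from the other 3 by Dixon's test at the 95% level, which chance alone does in about 1 of 20 groups. AQP1 was high on newborn hippocampus replicate 4 (7.73, next 6.54), on hypothalamus at 145 d replicate 1 (7.04, next 6.56) and on hypothalamus at 80 d replicate 1 (6.60, next 6.49), where no probe was well above background. PTGDS was low on newborn cortex replicate 1 (15.89, next 16.09) and high on brainstem at 100 d replicate 4 (16.37, next 15.995). No TTR group had such an array.

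The change of PTGDS from 80 d to 145 d differed between the regions (F = 36.91, adjusted p = 2.06e-11 in limma), with rises of 5.64 in cortex, 4.73 in hippocampus, 2.74 in hypothalamus and 2.25 in brainstem. All 4 regions moved in the same direction.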

How the results depend on the processing

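PTGDS passed from 80 d to 145 d in all 4 regions, and TTR between brainstem and cortex over all ages, under every alternative run. With a replicate block no call changed (the PTGDS rise in cortex was 5.64 and the brainstem minus cortex difference in TTR 5.73), and none did with the replicate number within an age as a block, an alternative added after the data were seen, as was leaving the farthest array out of the likeness values. Deviations of same-numbered samples of 1 age correlated at a median of 0.054 and at over 0.1 in 55 of 141 pairs, and those of same-numbered samples of 1 region at a median of 0.102 and at over 0.1 in 119 of 235, against medians of -0.0447 and -0.0412 for other numbers. Samples of 1 region differ in age and cannot come from 1 animal, yet same-numbered ones correlated too. The measure therefore cannot decide on pairing, and the numbers were not taken to pair the samples.

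The cause of the changes that follow was not tested. With slide as a block, hippocampus minus cortex in TTR was 1.83 (adjusted p = 0.205) and hypothalamus minus hippocampus in PTGDS 0.43 (adjusted p = 0.103). In the authors' table these values were 0.13 for hypothalamus minus hippocampus in PTGDS (adjusted p = 0.341) and -1.44 in TTR (adjusted p = 0.0414, now past the threshold). On the processed signal they were -0.0013 and -1.60 (adjusted p = 0.996 and 0.0324), the F test of AQP1 over the regions was 5.79 (adjusted p = 0.00197), the TTR change across birth in hippocampus 0.0378, and the TTR change from 80 d to 145 d in brainstem 0.32, which was 0.0225 with marked spots kept.

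Correlations of TTR with AQP1 in brainstem were 0.712 and 0.904 within slides 1 and 3 and 0.540 without the 2 farthest arrays, none past the threshold. In hippocampus this correlation was 0.61 on the processed signal (adjusted p = 0.0297). Signs turned for TTR with AQP1 in cortex (-0.13 within slide 2) and hypothalamus (0.0896 on the processed signal, 0.134 and 0.111 within slides 1 and 2). They turned for TTR with PTGDS in brainstem (0.189 within slide 1), cortex (-0.10 within slide 3), hippocampus (0.235 on the processed signal, 0.0717 within slide 1, 0.233 without the 2 farthest arrays) and hypothalamus (0.113 and 0.365 within slides 2 and 3, 0.0912 without the 2 farthest). They turned for AQP1 with PTGDS in cortex (-0.0242 within slide 3) and hippocampus (0.245 on the processed signal, 0.0813 without the 2 farthest).

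The residual SD of AQP1 in brainstem, cortex, hippocampus and hypothalamus was 0.318, 0.167, 0.490 and 0.234 with an offset of 16 and 1.21, 0.697, 1.38 and 1.27 on the processed signal, where that of PTGDS in hippocampus was 1.19. With 1 array left out, hypothalamus minus hippocampus in TTR ran from -1.60 to -1.04 and passed in 10 of 95 runs. The TTR change across birth ran from -1.54 to 0.655 in hippocampus and -0.66 to 1.01 in hypothalamus, and that from 80 d to 145 d from -0.69 to 0.0067 in brainstem, -1.1 to 1.26 in cortex and -0.73 to 1.104 in hippocampus. The residual SD of AQP1 ran from 0.178, without newborn replicate 4, to 0.322 in hippocampus and from 0.0889, without replicate 1 at 145 d, to 0.138 in hypothalamus. The other region differences over all ages, F tests, changes from 80 d to 145 d and across birth and residual SDs of the 3 genes that were rerun in this way kept direction and call. Some of their sizes moved widely. Across birth TTR ran from -2.38 to -0.019 in cortex and -2.395 to -1.058 in brainstem. PTGDS there ran from -0.285 to -0.1145 (cortex), -0.293 to -0.046 (brainstem), -0.639 to -0.088 (hippocampus) and 0.209 to 0.513 (hypothalamus). From 80 d to 145 d TTR in hypothalamus ran from -1.84 to -0.29. Single steps, single ages, list genes and correlations were not rerun with 1 array left out. AQP1, near background, is limited by its signal.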
